A study of Rattus norvegicus with 9 samples.

Results

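Schwann cell and myelin genes were followed in the superior mesenteric artery (SMA), the vessel that feeds most of the small intestine. The 7 genes were chosen by name from the deposited table of 37203 gene symbols: Mbp, Pmp2, Pmp22, Sox10, Prx, Mag and Mal. All 7 had rows in the table, and all 7 passed the filter on low counts that left 15482 genes to test. A further pair, Dbh and Prph, stood for the neurons, and each library was read for both kinds of gene. The arteries came from 8-week-old Sprague-Dawley rats in groups of 3: normal, ischemia for 1 h and ischemia for 4 h. For the ischemic groups, pentobarbital-anaesthetized rats were bled by way of a right femoral arterial catheter, with hours running from the completed model. The rats carried no transgene, and whether the normal rats were anaesthetized or catheterized in the same way is not given in the sources used here.

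Schwann cells are the glia of peripheral nerves. Those that myelinate wrap a single axon in many turns of membrane, which speeds conduction, while non-myelinating Schwann cells hold bundles of thin axons. Arteries of the gut are supplied mainly by thin sympathetic axons, whose cell bodies sit in ganglia near the root of the vessel and which carry little myelin. The axons in the wall hold little of the neurons' mRNA, which stays mostly in the cell bodies, whereas Schwann cells carry their nuclei and mRNA along the nerve.

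Total counts ran from 13114273 to 15504240 per library, so that 1 CPM (the unit of depth-scaled counts, here with TMM-scaled library sizes) stood for 12.1 to 17.9 counts. The smooth muscle gene Myh11, a myosin that marks the artery's own muscle, was abundant in every library, with its minimum (4693 CPM) in normal replicate 1 and its maximum (23515 CPM) in replicate 1 at 4 h. Of 8 genes typical of central myelin, Olig2 was at 0 in all 9 libraries and Mobp, Opalin and Nkx2-2 were each at 0 in at least 5. Mog, Sox8, Cldn11 and Gpr37 had counts in all 9, with maxima of 1.24, 5.22, 6.27 and 76.0 CPM. The libraries differed far more in nerve genes than in total count, and they did so within groups. In whole tissue, fewer cells of a type and less RNA per cell cannot be told apart.

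Mbp, the gene of myelin basic protein, which sticks the inner faces of the myelin membrane together, was at 956, 21.8 and 159.5 CPM in normal replicates 1 to 3. The libraries at 1 h held 172, 509.9 and 342 CPM, and those at 4 h 56.8, 474 and 365 CPM. The highest and the lowest of the 9 libraries were both normal, and they lay 43.8-fold apart (95% exact interval for counting error 39.1 to 49.3). Both ischemic groups lay wholly inside the range of the normal group. Pmp22, a small membrane protein of compact myelin that other cell types also make, was at 734, 122 and 233 CPM in normal rats, at 397, 504 and 517 CPM at 1 h, and at 169, 393 and 526 CPM at 4 h. Its order was much the same, but its extremes were only 6.03-fold apart (5.73 to 6.35).

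Pmp2, the gene of a fatty acid binding protein of peripheral myelin, rested on few reads, from 0 to 34 counts per library. It was at 0.95, 0 and 0.66 CPM in normal rats, at 1.47, 1.34 and 2.09 CPM at 1 h, and at 0.083, 0.083 and 0.53 CPM at 4 h. The 3 libraries at 1 h lay above all others. The 0 in normal replicate 2 allows a level of up to 0.219 CPM (3 counts). These limits and intervals cover counting error only.

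**Figure D1:**
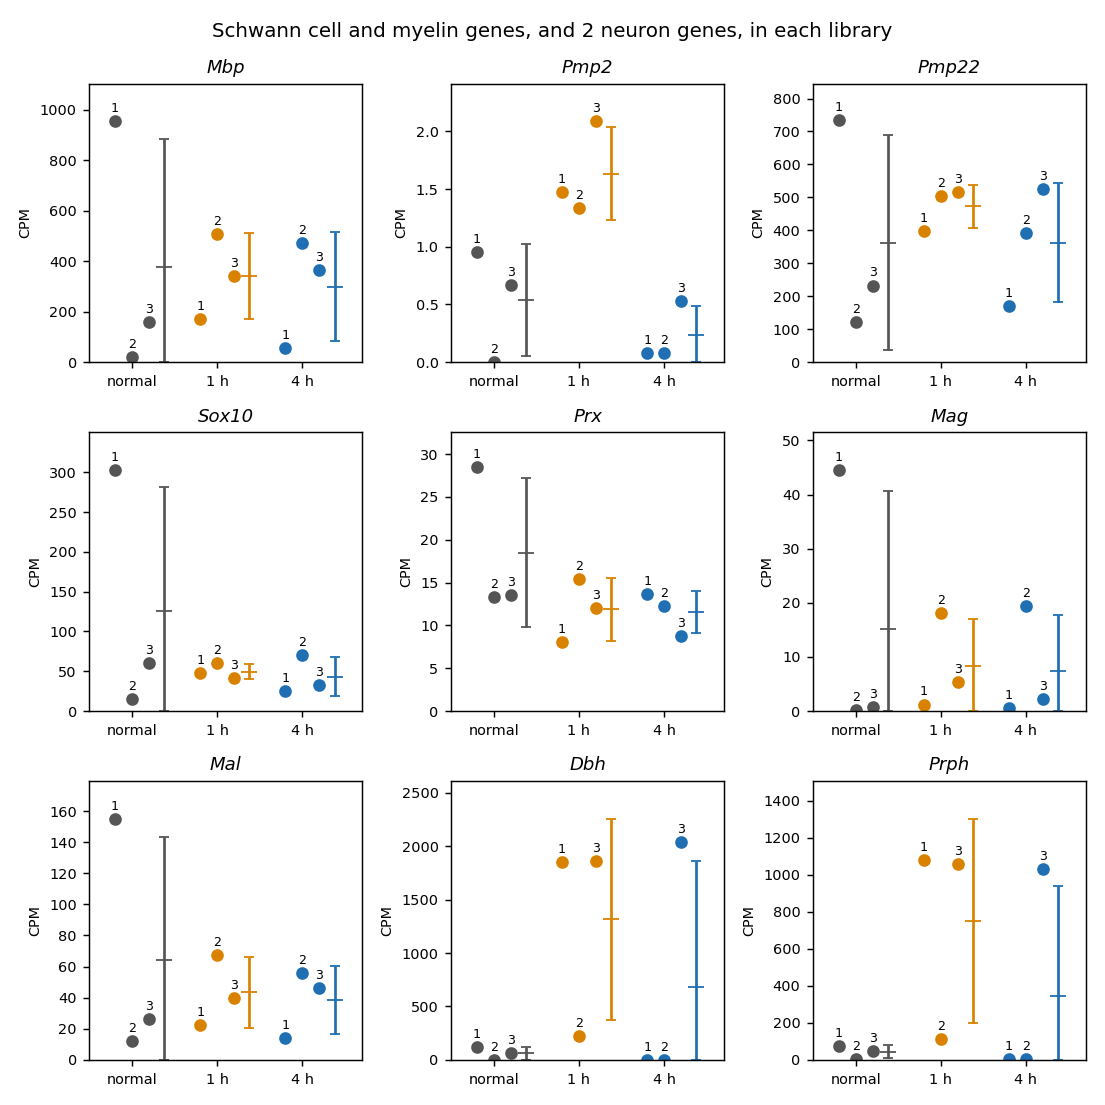
Each panel plots CPM on a linear axis from 0 for 1 gene, with a point per library marked by its replicate number and, beside each group, the mean with a bar of 1 SD (n = 3, cut at 0). In 6 of the 7 Schwann cell and myelin genes normal replicate 1 is the highest library, whereas Dbh and Prph are highest in replicates 1 and 3 at 1 h and replicate 3 at 4 h.

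Sox10, the transcription factor that Schwann cells need at every stage and that switches on many myelin genes, was at 303, 15.3 and 60.0 CPM in normal rats. The values were 47.7, 59.8 and 41.0 CPM at 1 h and 25.4, 71.0 and 33.0 CPM at 4 h. Normal replicate 1 stood far above the other 8 libraries, which lay between 15.3 and 71.0 CPM. Mag codes for myelin-associated glycoprotein, an adhesion molecule on the innermost turn of myelin that faces the axon. Its levels were 44.6, 0.219 and 0.739 CPM in normal rats, at 1.20, 18.2 and 5.35 CPM at 1 h and at 0.496, 19.4 and 2.24 CPM at 4 h. The ratio of its extremes, normal replicates 1 and 2, was 204, but with 3 counts in the lower library its counting interval ran from 69.4 to 989.

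Mal, a membrane lipid-raft protein that myelinating glia, T cells and some epithelia make, was at 155 CPM in normal replicate 1 and at 11.8 CPM in normal replicate 2, a ratio of 13.1 (11.2 to 15.47). Its other normal library was at 26.1 CPM, those at 1 h were at 22.7, 67.4 and 40.0 CPM, and those at 4 h at 13.9, 55.6 and 46.0 CPM. Prx, the gene of periaxin, which ties the outer Schwann cell membrane to the basal lamina, varied least. Its levels were 28.6, 13.4 and 13.6 CPM in normal rats, at 8.09, 15.4 and 12.04 CPM at 1 h, and at 13.6, 12.3 and 8.78 CPM at 4 h. Its lowest library was replicate 1 at 1 h rather than normal replicate 2.

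The start regions of 2 of these genes are shown because they hold letters that SOX factors such as Sox10 bind. RefSeq's table for assembly GRCr8 gave 6 windows, from 250 bases before to 50 bases after an annotated start, for 5 of the 7 genes, with 2 windows for Mbp. Pmp2 and Sox10 were not matched. The windows were searched on both strands for the SOX core letters ACAAAG and ACAATG and for the EGR letters GCGTGGGCG and GCGGGGGCG, which Egr2, a main myelin regulator, binds. The second Mbp window, chr18:78209995-78210294 on the plus strand, and the Mag window, chr1:95290995-95291294 on the minus strand, read 5′ to 3′ along the gene, with the matches in capitals:
Mbp, second start: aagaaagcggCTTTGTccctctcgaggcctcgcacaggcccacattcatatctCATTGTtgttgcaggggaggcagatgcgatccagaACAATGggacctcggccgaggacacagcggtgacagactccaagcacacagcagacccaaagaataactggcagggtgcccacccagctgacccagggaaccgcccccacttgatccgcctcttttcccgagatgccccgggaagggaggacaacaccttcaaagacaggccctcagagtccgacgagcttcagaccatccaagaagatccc
Mag: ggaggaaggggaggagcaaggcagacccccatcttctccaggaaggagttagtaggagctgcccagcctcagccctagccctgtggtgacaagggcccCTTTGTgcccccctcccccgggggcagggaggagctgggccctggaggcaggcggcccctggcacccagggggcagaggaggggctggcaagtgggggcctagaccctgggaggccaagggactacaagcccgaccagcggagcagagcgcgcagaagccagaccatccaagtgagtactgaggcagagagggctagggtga

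In the Mbp window the matches began at -240 (ACAAAG, reverse strand), -197 (ACAATG, reverse strand) and -162 (ACAATG), counted from the start, and in the Mag window at -152 (ACAAAG, reverse strand). The other 4 windows held no SOX letters, and 0 of the 6 held the EGR letters. Of the 11868 windows whose genes were tested, 19.7% held ACAAAG or ACAATG, and 6.08% held 1 of the EGR sequences, with 29.1% and 3.20% over all 33469 windows. A match describes the letters alone, and the counts do not tell which Mbp start was used.

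The 7 genes were ordered alike across libraries in most cases. Normal replicate 1 was the highest library for 6 genes (Pmp2 was the exception), and normal replicate 2 was the lowest for 6 genes (Prx was the exception). How many of all genes share these extremes was not computed. Summed endothelial (1176 CPM), fibroblast (1942 CPM) and adipocyte (2000 CPM) genes were also highest in normal replicate 1, though not lowest in normal replicate 2. Those of smooth muscle, neuron, adrenal, lymphocyte, and gut and pancreas genes were highest in other libraries. Pearson's r of a gene's log2 CPM with the mean of the other 6, over the 9 libraries, was 0.96 for Mal, 0.95 for Mbp, 0.92 for Pmp22, 0.88 for Mag and 0.85 for Sox10, against 0.52 for Pmp2 and 0.42 for Prx. These values are descriptions over libraries of 3 groups and carry no test. The SD of log2 CPM within groups was 2.80 for Mag, 1.90 for Mbp, 1.34 for Mal, 1.33 for Sox10, 1.09 for Pmp2, 0.91 for Pmp22 and 0.49 for Prx. Mag was more variable than 98.97% of the genes tested and Mbp more than 95.7%, while Prx was near the middle at 54.7%.

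The neuron genes peaked in other libraries than most of the Schwann cell and myelin genes. Dbh, the enzyme that turns dopamine into noradrenaline in sympathetic neurons, was at 116, 0 and 66.5 CPM in normal rats, at 1854, 226 and 1866 CPM at 1 h, and at 0.66, 0.25 and 2041 CPM at 4 h. Prph, the neuronal intermediate filament peripherin, was at 76.6, 6.13 and 45.9 CPM in normal rats, at 1083, 111 and 1056 CPM at 1 h, and at 3.64, 3.48 and 1030 CPM at 4 h. Both were high in replicates 1 and 3 at 1 h and in replicate 3 at 4 h, where Mbp was at 172, 342 and 365 CPM. Pearson's r with the mean of the Schwann cell and myelin genes, again without a test, was 0.52 for Dbh and 0.39 for Prph. It was 0.52 for Pmp2 and 0.42 for Prx, each against the other members. By this measure Dbh and Prph did not stand clearly apart from Pmp2 and Prx.

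The libraries with the most Mbp were not those with the most Prph. Normal replicate 1 had the most Mbp with a middling Prph. Replicate 2 at 4 h had Mbp at 474 CPM, the third highest of the 9 libraries, with the lowest Prph and with 3 counts of Dbh in the whole library. Normal replicate 2 and replicate 1 at 4 h were low in both. Counts of Mbp per count of Prph were 12.5, 3.56 and 3.47 in the normal group, 0.159, 4.59 and 0.324 after 1 h, and 15.6, 136 and 0.354 after 4 h. Between its extremes this ratio changed 855-fold, and both the highest value and one of the lowest fell within the 4 h group. Such a ratio compares libraries, not the levels of the 2 genes, since lengths were not taken into account.

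**Figure D2:**
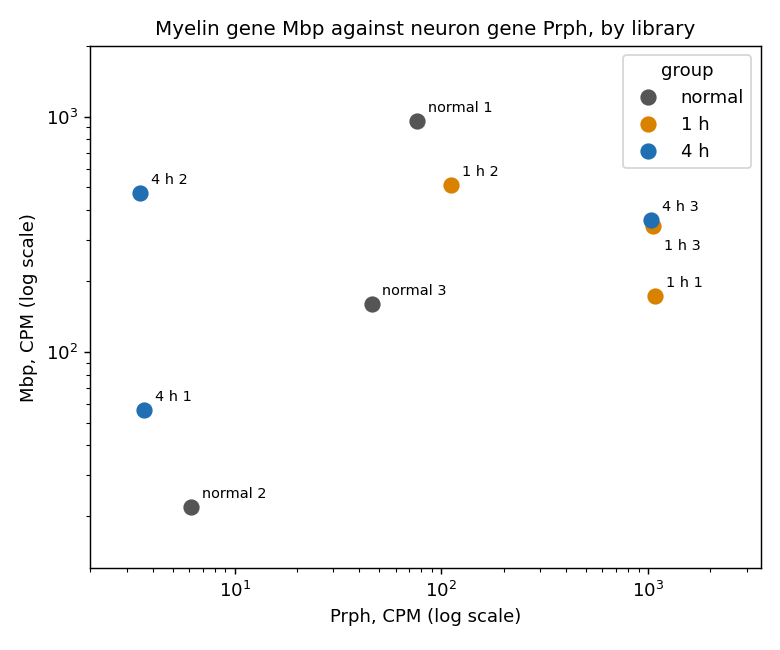
Mbp is plotted against Prph in CPM, both on log scales, with a point per library labelled by group and replicate. Replicates 1 and 3 at 1 h and replicate 3 at 4 h lie at the right, between 1030 and 1083 CPM of Prph, with Mbp from 172 to 365 CPM, while replicate 2 at 4 h has 3.48 CPM of Prph and 474 CPM of Mbp.

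Whether a gene followed the neurons within groups was tested in a fit that held group and the neuron level (the mean log2 CPM of Dbh and Prph), with edgeR's quasi-likelihood test and Benjamini-Hochberg adjustment over all genes. Of the 7 genes, 0 had a slope that passed at an adjusted p of 0.05, and 1, Pmp2, had an unadjusted p under 0.05. Over all genes 8.51% passed, so 0 of 7 is near that share and says little about these genes. The slope, in log2 units of the gene per log2 unit of neuron level, was 0.13 for Mbp (SE 0.17, adjusted p = 0.642), 0.14 for Pmp22 (SE 0.069, adjusted p = 0.254), 0.07 for Sox10 (SE 0.14, adjusted p = 0.784) and 0.10 for Mal (SE 0.12, adjusted p = 0.632). It was -0.020 for Prx (SE 0.0495), -0.11 for Mag (SE 0.30) and 0.33 for Pmp2 (SE 0.10, adjusted p = 0.0875).

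Of 24 further sympathetic neuron genes, 21 passed with a positive slope, where 8.09% of all genes did. They included Tubb3, a neuronal tubulin (0.83, SE 0.068), Uchl1, a ubiquitin hydrolase (0.57, SE 0.056), Stmn2, a growth cone protein (0.69, SE 0.066), and Th, the enzyme that begins noradrenaline synthesis (1.01, SE 0.067). The median slope was 0.88 in that list and 0.10 in the 7 genes, and the difference between the lists was not tested. The neuron level is itself made of 2 sympathetic neuron genes, and the lists were chosen with earlier results of these data known. A high share in the neuron list is therefore a description and not independent support. With any single library left out, 0 of the 7 genes and 17 to 22 of the neuron genes passed. The slopes of the 7 genes leaned on single libraries, and without replicate 3 at 4 h that of Mbp was 0.47 and that of Mag 0.43. Without normal replicate 2 the slopes were 0.011 for Mbp, -0.27 for Mag, 0.0042 for Mal and -0.060 for Sox10.

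**Figure D3:**
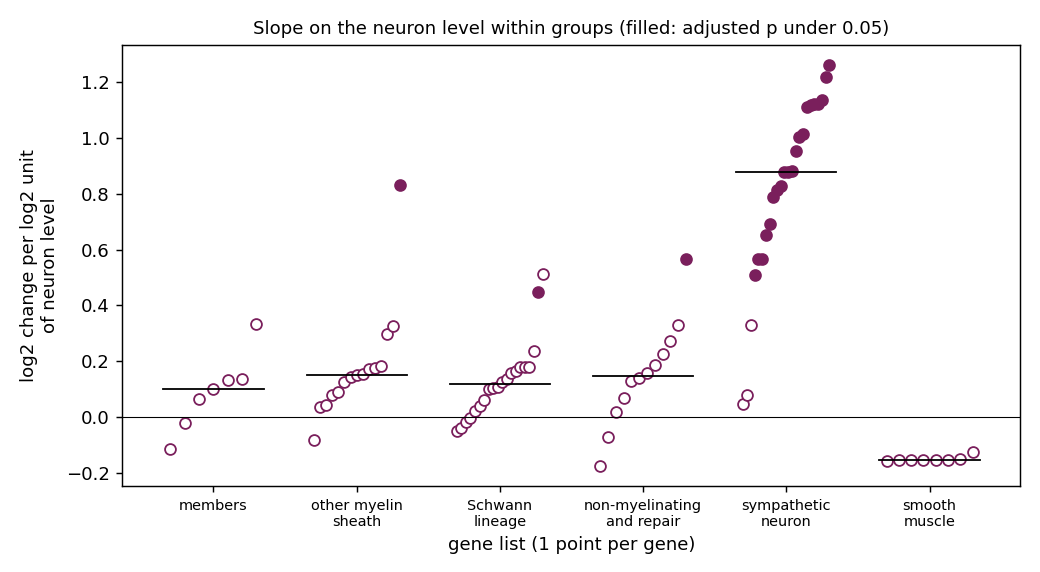
The vertical axis gives the log2 change of a gene per log2 unit of neuron level within groups, with a point per gene, filled where the adjusted p was under 0.05, and a line at the median of each list. None of the 7 members is filled, and 21 of the 24 sympathetic neuron genes are, where 8.51% of all genes passed.

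Other members were set against Mbp by ratios of counts within a library. Between the highest and the lowest library, Mal per Mbp spanned 4.63-fold, Pmp22 7.26-fold, Sox10 7.73-fold, Mag 10.1-fold and Prx 25.4-fold. Prx, Mal, Pmp22 and Sox10 stood highest against Mbp in normal replicate 2, the library with the least Mbp. Each of them varied less within groups than Mbp (SD of log2 CPM 0.49 to 1.34, against 1.90). A peak of the ratio where Mbp is lowest thus follows largely from the range of Mbp itself.

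Sox10 per Mbp was 0.317, 0.699 and 0.376 in the normal group, 0.277, 0.117 and 0.120 after 1 h, and 0.447, 0.150 and 0.0904 after 4 h. Mal per Mbp was 0.162, 0.542 and 0.164 in the normal group, 0.132, 0.132 and 0.117 after 1 h, and 0.245, 0.117 and 0.126 after 4 h. For both genes the ratios after 1 h lay below the normal ones and those after 4 h overlapped them. The ratios of Pmp22, Prx and Mag to Mbp overlapped between normal and 1 h. The ratios of Sox10 and Mal share the counts of Mbp and so are not independent. How many genes in all lie apart in this way against Mbp was not computed, so no change is read from it. Mag per Mbp was high in normal replicate 1 (0.0466), replicate 2 at 1 h (0.0357) and replicate 2 at 4 h (0.0410), and no other library was above 0.0156. These 3 libraries also had the highest Mbp in their groups.

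**Figure D4:**
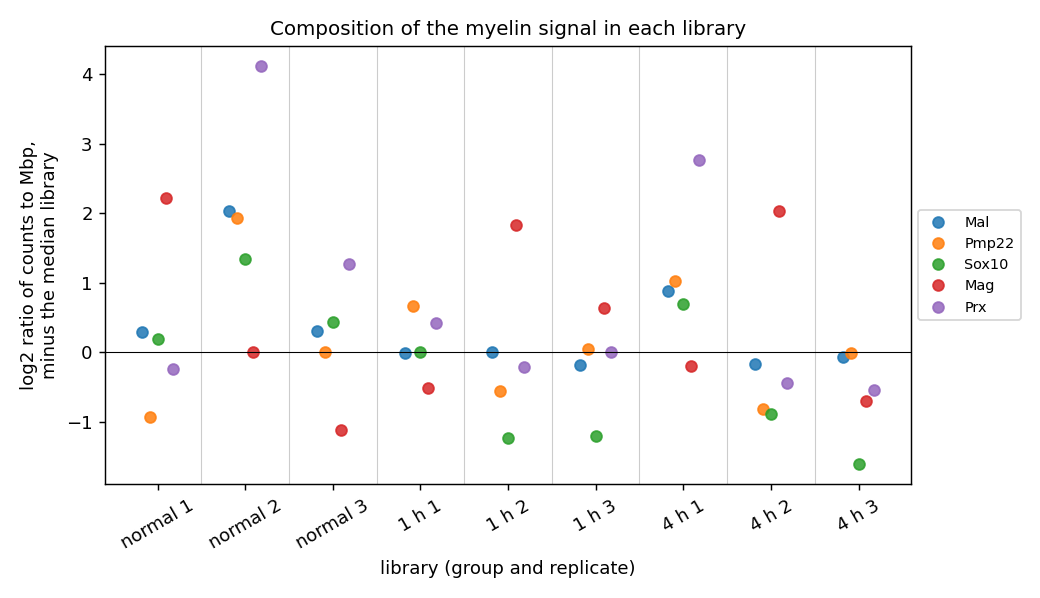
For each library the log2 ratio of a gene's counts to those of Mbp is plotted as the difference from that gene's median library, with a colour per gene and side-by-side offsets for legibility. Prx lies far above the line in normal replicate 2, at 0.612 Prx counts per Mbp count, and Mag is high in 1 library of each group.

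To ask whether the genes changed in the early stage of ischemia, 1 h was set against normal. A call needed an edgeR adjusted p below 0.05 and more than a 1.5-fold change. Of the 7 genes, 0 met it, where 0.0581% of all genes were, and 0 had an unadjusted p under 0.05, where 16.7% of all genes did. DESeq2 also called 0 of the 7, with 4.53% of all genes. Mbp averaged 379 ± 504 CPM in normal rats and 341 ± 169 CPM at 1 h (SD, n = 3), and its log2 fold change was -0.15 (SE 1.18, 95% interval -2.85 to 2.54). Sox10 went from 126 ± 155 to 49.5 ± 9.53 CPM (log2 fold change -1.35, SE 0.90, edgeR adjusted p = 0.424) and Prx from 18.5 ± 8.71 to 11.9 ± 3.68 CPM (-0.64, SE 0.38, edgeR adjusted p = 0.372).

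Pmp2 had the largest positive value at 1 h, from 0.54 ± 0.49 to 1.63 ± 0.40 CPM (log2 fold change 1.57, SE 1.06, edgeR adjusted p = 0.427). It was the only member whose libraries at 1 h all lay above the normal ones, as did 12.8% of all genes, and 0 of the 7 lay wholly below, as did 13.5%. The log2 fold changes of Pmp22, Mal and Mag were 0.38 (SE 0.65), -0.57 (SE 0.92) and -0.88 (SE 1.85). The median of the 7 was -0.57, beside -0.0076 over all genes tested. The direction of Mbp, Sox10, Mal and Mag rested on normal replicate 1, which had the least Myh11 of all libraries and the most of 6 members, and the part of tissue make-up in this was not tested. Without that library the values at 1 h were 1.91 for Mbp, 0.40 for Sox10, 1.19 for Mal and 4.08 for Mag, while Pmp22 (1.42), Pmp2 (2.27) and Prx (-0.18) kept their sign, and again 0 of the 7 were called. Pmp22 was at -0.013 without normal replicate 2.

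At the late stage, 4 h against normal, 0 of the 7 genes were called by edgeR, where 0.0904% of all genes were, and 0 had an unadjusted p under 0.05, where 12.4% did. DESeq2 called 0 of the 7 and 3.91% of all genes. Mbp reached 298 ± 216 CPM (log2 fold change -0.35, SE 1.18, 95% interval -3.04 to 2.35) and Pmp22 363 ± 180 CPM, beside 363 ± 326 CPM in normal rats (log2 fold change 0.0001, SE 0.64). Sox10 was at 43.1 ± 24.4 CPM (-1.55, SE 0.91, edgeR adjusted p = 0.525) and Prx at 11.6 ± 2.51 CPM (-0.68, SE 0.38, edgeR adjusted p = 0.504). Mal was at -0.74 (SE 0.92), Mag at -1.05 (SE 1.85) and Pmp2 at -1.16 (SE 1.14). The median of the 7 was -0.74, beside 0.03 over all genes. In 0 of the 7 did the 4 h libraries lie wholly above the normal ones (7.93% of all genes) or wholly below (10.8%). Without normal replicate 1 the log2 fold changes were 1.72 for Mbp, 0.20 for Sox10, 1.02 for Mal and 3.92 for Mag, which turned, and 1.03 for Pmp22, -0.22 for Prx and -0.46 for Pmp2, which did not. Both contrasts use the same normal libraries, so their values are not independent.

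Between 4 h and 1 h, 0 of the 7 were called, as were 0% of all genes, and Pmp2 alone had an unadjusted p under 0.05, where 2.58% of all genes did. DESeq2 called 0 of the 7 and 0% of all genes. Pmp2 was lower at 4 h in all 3 libraries, with 1, 1 and 8 counts against 22, 20 and 34, a pattern that 3.04% of genes showed, while 0 of the 7 were wholly higher, as were 3.20% (6.24% either way). Its log2 fold change was -2.73 (SE 1.14, 95% interval -5.34 to -0.11, edgeR adjusted p = 0.856), and the adjusted p ran from 0.172 to 1 without any single library. Of the others, Pmp22 was at -0.38 (SE 0.65), and Mbp, Sox10, Prx, Mag and Mal lay between -0.20 and -0.04. When the 3 groups were tested together, 0 of the 7 were called and 0.0388% of all genes were, with Pmp2 the nearest at an edgeR adjusted p of 0.493. An unadjusted p under 0.05 was found in 0 of the 7 and in 11.4% of all genes.

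**Figure D5:**
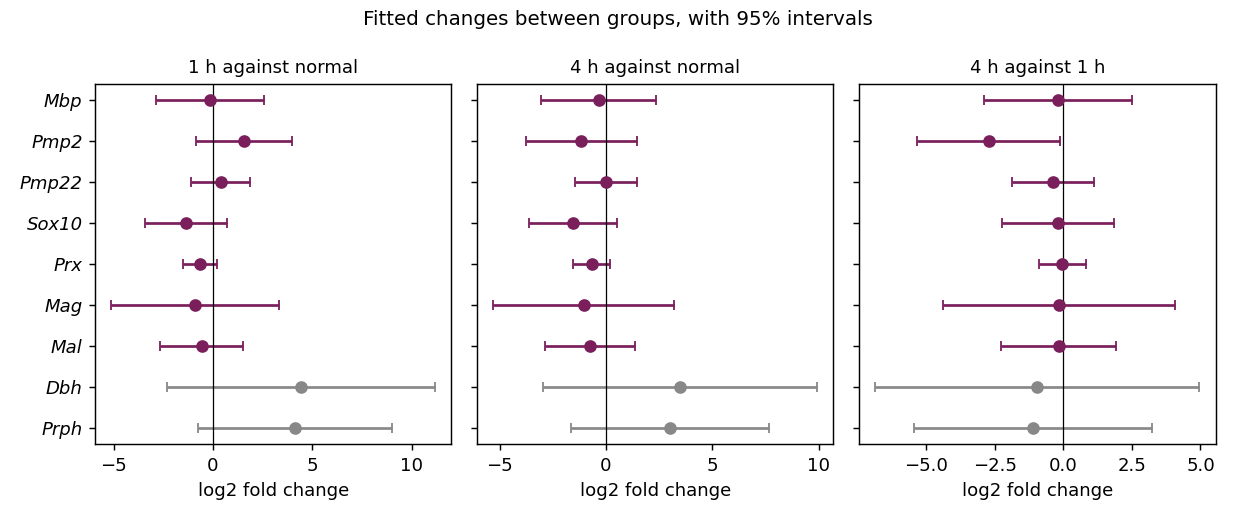
Points give the log2 fold change of each gene in 3 contrasts, and bars its 95% interval, with the 7 Schwann cell and myelin genes in purple and the neuron genes Dbh and Prph in grey; the 3 horizontal axes differ in range. All intervals cover 0 except that of Pmp2 at 4 h against 1 h, which ends at -0.11.

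Further genes of Schwann cells were counted in 3 lists. Of 18 genes of the myelin sheath 15 were tested, of 20 lineage and signalling genes 20 were, and of 15 genes of non-myelinating and repair glia 12 were. By edgeR 0 of these 47 genes were called in any of the 3 contrasts, and 4, 4 and 1 had an unadjusted p under 0.05 in the early, the late and the late-against-early contrast, beside 16.7%, 12.4% and 2.58% of all genes. DESeq2 called 3 at 1 h and 2 at 4 h, beside 4.53% and 3.91% of all genes. The sheath list had a median log2 fold change of -0.10 at 1 h and -0.44 at 4 h, and the lineage list of -0.17 and -0.37. The non-myelinating and repair list had medians of 0.64 and 0.42, with 11 and 9 of its 12 genes above 0, beside 7655 and 8097 of all 15482 genes. The sympathetic neuron list had medians of 4.17 and 3.04, with 24 of 24 genes above 0 at both times. Its summed level at 4 h was 68.0, 74.2 and 8683 CPM in replicates 1 to 3, beside 655, 52.6 and 410 CPM in normal rats. The high values at 4 h thus came from replicate 3 alone, and genes that move together are not separate observations. Ngfr and L1cam of the non-myelinating list were highest in the 3 libraries with the most Dbh, where they reached 306 to 314 CPM and 435 to 512 CPM, and the part of the neurons in this list was not tested.

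Among the most abundant sheath genes, Cnp, an enzyme of uncompacted myelin, ranged from 36.9 to 486 CPM, and Cadm4, an adhesion molecule toward the axon, from 5.77 to 258 CPM. Like Mbp, both were highest in normal replicate 1 and lowest in normal replicate 2. Their log2 fold changes at 1 h were -0.37 (SE 0.87) and -0.04 (SE 1.08).

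In the lineage list Lgi4, a secreted protein that Schwann cells need to myelinate, ranged from 79.3 to 1299 CPM, and Itgb4, an integrin of the outer Schwann cell membrane, from 192 to 2109 CPM. Dag1 (330 to 708 CPM) and Zeb2 (137 to 360 CPM), which many cell types express, varied less. Of the non-myelinating list, Scn7a, a sodium channel relative of non-myelinating glia, ranged from 227 to 4985 CPM, Cdh19, a Schwann cell cadherin, from 29.2 to 805 CPM, and L1cam, an adhesion molecule of unmyelinated fibres and of neurons, from 13.4 to 512 CPM. The fourth, Jun, a stress-induced factor that Schwann cells also raise after injury, was at 124, 179.5 and 397 CPM in normal rats, at 471, 351 and 220.4 CPM at 1 h, and at 815, 899 and 362 CPM at 4 h. The normal range overlapped with both ischemic groups (at 4 h, log2 fold change 1.57, SE 0.53, edgeR adjusted p = 0.289).

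Of the 47 genes 3 had a slope on the neuron level that passed, where 8.51% of all genes did, and they are named here after their values were seen. They were Nfasc (0.83, SE 0.0365), Adam22 (0.45, SE 0.074) and Ngfr (0.57, SE 0.0695), each of which neurons also express. Nfasc was at 107, 14.7 and 92.2 CPM at 1 h and at 0.248, 0.497 and 111 CPM at 4 h, and like Dbh it was highest in replicates 1 and 3 at 1 h and replicate 3 at 4 h. Without normal replicate 1 or replicate 2 at 4 h, 6 of the 47 passed, and without replicate 3 at 4 h, 1 did.

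The genes with the smallest p against normal were also named after their values were seen. Egr2, the factor that drives myelination and that many cells also induce early after a stimulus, was at 1.18, 0.657 and 1.48 CPM in normal rats. The levels were 4.55, 14.6 and 11.5 CPM at 1 h and 3.06, 2.90 and 4.03 CPM at 4 h. Both ischemic groups lay above all normal libraries, with log2 fold changes of 3.20 (SE 0.51, edgeR adjusted p = 0.117) and 1.59 (SE 0.49, edgeR adjusted p = 0.246). DESeq2 called Egr2 at 1 h (adjusted p = 1.87e-06). Its order among libraries was not that of Mbp, since normal replicate 1 was low.

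Nab2, a corepressor that binds EGR factors, was at 21.3, 24.2 and 38.8 CPM in normal rats, at 6.56, 15.1 and 8.36 CPM at 1 h, and at 7.44, 7.38 and 5.88 CPM at 4 h. Its log2 fold changes were -1.49 (SE 0.36, edgeR adjusted p = 0.207) and -2.03 (SE 0.37, edgeR adjusted p = 0.0803), and DESeq2 called it at both times. Gdnf, a growth factor that repair Schwann cells and smooth muscle make, was at 1.90, 8.47 and 6.06 CPM in normal rats, at 9.77, 46.1 and 26.0 CPM at 1 h and at 48.5, 34.5 and 15.6 CPM at 4 h (log2 fold changes 2.32, SE 0.72, and 2.59, SE 0.73). It was called by DESeq2 at both times and not by edgeR. In Egr2, Nab2 and Gdnf the groups did not overlap at either time. Taken singly, 26.3% of all genes lay apart at 1 h and 18.7% at 4 h, and the share apart at both times was not computed. At 1 h, 1 of the 15 tested sheath genes lay apart from normal, as did 1 of the 12 non-myelinating genes. Of the 20 lineage genes 2 lay above and 1 below.

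Outside these lists, the named genes whose log2 CPM was most like the mean of the 7 over the 9 libraries were Cep97, a centriole protein, Ccnd1, the cyclin D1 gene, Akr1c19, an aldo-keto reductase, Sema3b, a secreted semaphorin, Vwa1, an extracellular matrix protein, and Gas7. Their Pearson's r ran from 0.981 to 0.987 among 11280 genes with a mean of at least 5 CPM, which is a description with no test. Vwa1 was at 565, 72.5 and 166 CPM in normal rats, at 172, 349.8 and 329.5 CPM at 1 h and at 107, 363 and 234 CPM at 4 h. Gas7 had the same extreme libraries as Mbp, with 53.6 CPM in normal replicate 2 and 793 CPM in normal replicate 1.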

How the data were processed

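Transcripts were counted in SMAs of 9 rats, 3 per group. Raw counts per gene symbol were deposited by the authors in 1 table with a column per sample. HISAT2 is named in the submitters' processing notes without a version. The counting program, genome build, annotation and use of strand are not given in the sources used here. The study's methods describe microarrays for these samples, which whole-number counts do not match. Its results text mentions both gene chips and transcriptome sequencing for the rat arteries. Whether replicates were separate rats rests on the series description, and p-values measure the spread between these samples.

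Genes were filtered with filterByExpr (15482 of 37203 kept), scaled by TMM and tested with the quasi-likelihood test of edgeR 4.0.16 in R 4.3.3, with all 9 libraries in 1 fit and p-values adjusted by Benjamini-Hochberg over all genes. Calls required adjusted p-values below 0.05 and more than 1.5-fold change, the study's thresholds. Standard errors are the fold change divided by the square root of F. Log2 CPM used a prior count of 2. Intervals for single libraries are exact Poisson or binomial ones. DESeq2 1.42.0, other scalings and filters, a replicate block, the neuron level as a covariate and the omission of single libraries were tried. The test was also run on simulated counts, and its outcome is not reported here. Those counts were drawn for each gene separately, so they lack the shared swings of genes that move together. The 7 genes and all 13 lists (140 genes) were chosen with earlier results of these data known. Of each list, genes called and otherwise the 4 most abundant were to be named, with the 6 genes most like the 7 members (mean of at least 5 CPM, uncharacterised identifiers left out). Of the sheath list, 2 such genes are not reported here. Adgrg6 was read as Gpr126, and Cyp11b1 was not matched. Of the tested symbols 88.2% matched RefSeq's GRCr8 table. No library was a copy of another (lowest chi-square per degree of freedom 29.9).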

Additional observations from a re-analysis of the deposited data

How the results depend on the processing

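Across 8 other settings and 9 fits that each left out a library, 0 of the 7 genes were called in any contrast. Without a library, only 0 to 11 of all genes were called at 1 h, 1 to 14 at 4 h and 0 at 4 h against 1 h. A count of 0 among the 7 thus says little about their stability. With other settings, 158 of 167 member log2 fold changes kept their direction. Scaled by library size alone, which put the median of all genes at -0.15 at 4 h, Pmp22 was at -0.19 at 4 h against normal, and with a filter of 1 CPM in 3 libraries it was at -0.00074. With the replicate number as a block, Mbp was at 0.0075 at 1 h against normal. With the neuron level as a covariate Pmp22 was at -0.14 at 1 h and Mbp at 0.035 at 4 h, and between 4 h and 1 h Mbp was at 0.52, Pmp22 at 0.31, Sox10 at 0.24 and Mal at 0.34. The causes were not tested.

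With a library left out, 25 of 189 values changed sign. At 1 h against normal the range was -0.67 to 1.91 for Mbp, -0.013 to 1.42 for Pmp22, -1.85 to 0.40 for Sox10, -2.21 to 4.08 for Mag and -1.04 to 1.19 for Mal. At 4 h against normal it was -0.85 to 1.72 for Mbp, -0.38 to 1.03 for Pmp22, -2.11 to 0.20 for Sox10, -3.45 to 3.92 for Mag and -1.19 to 1.02 for Mal. Between 4 h and 1 h it was -0.70 to 0.26 for Mbp, -0.76 to 0.037 for Sox10, -0.25 to 0.20 for Prx, -2.57 to 1.17 for Mag and -0.53 to 0.30 for Mal.

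Over all genes, 9 were called at 1 h and 14 at 4 h. DESeq2 called 702 and 606, and a fit of only the groups compared 4 and 4. At 4 h the neuron level gave 80 and the replicate block 7. Leaving out a library gave 0 to 11 genes at 1 h and 1 to 14 at 4 h. DESeq2 called 3 and 2 of the 47 other Schwann cell genes at the 2 times, and 2 of the 24 sympathetic neuron genes at 1 h. The number of the 47 with a slope on the neuron level, 3, was 5 when only library size was scaled and 1 with the replicate block beside the neuron level, and 1 to 6 without a library. The settings of the slope were chosen after seeing the data. Same-numbered libraries correlated above 0.1 in 4 of 9 pairs, from -0.65 to 0.66, and differently numbered ones in 6 of 18, from -0.71 to 0.65. Pairing by replicate number was thus not seen, though so few pairs cannot exclude it. The block changed no call of the 7. With the block beside the neuron level, the slopes were 0.45 for Mbp, 0.35 for Mal and 0.52 for Mag.

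With 3 libraries per group and a within-group SD of 0.49 to 2.80 log2 units, intervals of the 7 genes were wide, and Pmp2 and Mag were also limited by counts of 10 or fewer in several libraries.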

Other observations

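Genes of other tissues were read beside the Schwann cell genes, and 0 of them were called by edgeR in any contrast. The summed level of 8 central myelin genes ran from 7.52 to 84.0 CPM in normal libraries, 16.7 to 52.8 CPM at 1 h and at most 42.9 CPM at 4 h. Gpr37, a receptor that peripheral cells also express, ranged from 4.09 to 76.0 CPM, while Mog was at most 1.24 CPM. Of this list 1 of 4 tested genes, Sox8, passed with a positive slope on the neuron level (0.25, SE 0.0545), where 8.09% of all genes did. Smooth muscle genes summed to 11225 to 49333 CPM in normal libraries. Of these, 0 of 8 had a slope that passed, where 8.51% of all genes did, and their median slope was -0.15.

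Of 6 tested adrenal genes 3 passed with a positive slope, where 8.09% of all genes did. They were Chga (0.80, SE 0.091), a granule protein of neurons and chromaffin cells, Slc18a1 (0.92, SE 0.086), a vesicular amine transporter, and Cyp11b2 (1.09, SE 0.091). The chromaffin gene Pnmt was at 1.49 CPM or less in every library, and DESeq2, unlike edgeR, called it at 1 h (log2 fold change 3.15, SE 0.92) and at 4 h (3.64, SE 0.92). Of 3 tested sensory and enteric genes 1 passed with a positive slope, Avil (0.65, SE 0.0785), beside the same 8.09%. The enteric gene Chat was at 0 in 7 libraries. No slope passed for the endothelial (6 genes tested), fibroblast (6), adipocyte (6), lymphocyte (1) or gut and pancreas (4) genes. With 8.51% of all genes passing either way, none in lists this small says little about those tissues. The named genes of these lists outside the 4 most abundant were chosen after their values were seen.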
